A study of Mus musculus with 8 samples.

Results

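The genes described here are 40 genes of glucose breakdown and of the response to low oxygen, measured in mouse embryonic stem (ES) cells that carry only paternal genomes, only maternal genomes, or a genome from each parent. A gene was used where 2 or more of the 8 arrays detected a probe annotated to it above the negative controls, with a detection p below 0.01. The brightest such probe stood for the gene. This left 30 of the 40 genes, among 8221 genes measured in the same way. Slc16a3 and Pfkfb3 did not reach the detection minimum, and Gpi1, Eno1, Ldhb, Egln1, Adm, Bnip3, Ero1l and Ankrd37 were not analysed here. Of the 30 genes, 26 were detected on all 8 arrays. The exceptions were Hk1, Pgk1, Mxi1 and P4ha1, which some or all androgenetic arrays did not detect.

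All cells were of the strain cross B6129F1, and the labels give no treatment. Androgenetic cells hold paternal genomes alone. They and the fertilized cells are of both sexes by their labels, and contain both sex chromosomes. Each of these groups gave 3 arrays, 1 each at passage 6, 7 and 8. Parthenogenetic cells hold maternal genomes alone, are female by their labels, and gave 1 array each at passage 6 and 7. Nothing says whether a passage was a line of its own, so the tests measure a spread between passages, which may be technical. The oxygen level and the culture medium are not given in the sources used here.

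Glycolysis splits glucose into pyruvate in a chain of enzyme reactions, several of which can be carried out by more than 1 isozyme, each from its own gene. Cells in low oxygen stabilise the transcription factor HIF1A, which prolyl hydroxylases otherwise mark for destruction, and HIF1A raises the transcription of many glycolytic genes and of genes for blood vessel growth, mitochondrial turnover and collagen folding. Mouse ES cells in the naive state use both glycolysis and respiration, and they become more glycolytic as they move toward the primed state.

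RNA was read on single-colour Illumina BeadChips, and values are background-corrected, quantile-normalized log2 signals. Per array, 10623 to 11174 probes were detected. The correlation between arrays was at least 0.985 within groups, 0.961 to 0.967 between parthenogenetic and fertilized arrays, and 0.861 to 0.868 between androgenetic arrays and the rest. The signal of a probe depends on its own sequence, so levels are compared between arrays and never between genes. Marker genes of other cell types moved with the groups. Of all 8221 genes, 39.3% were lower and 35.4% higher in androgenetic than in fertilized cells at an adjusted p under 0.05 (limma). Of 15 measured pluripotency markers, androgenetic cells had 12 lower than fertilized cells, and their summed linear signal was 60954 to 63907 on androgenetic, 164719 to 166550 on parthenogenetic and 140552 to 148849 on fertilized arrays. For 9 trophectoderm markers the sums were 81518 to 87260, 24357 to 24403 and 20996 to 23236. Of these 9, androgenetic cells had 7 higher than fertilized cells and 1 lower, by at least 2-fold. Eomes, a trophectoderm regulator, was not detected on any parthenogenetic or fertilized array. It passed the detection filter through androgenetic arrays alone, which fixed its direction. For 9 embryonic fibroblast markers the sums were 65724 to 68000, 33918 to 35984 and 22235 to 25389, with 8 of 9 higher in androgenetic cells. Col1a1 was not detected on any fertilized array, so it passed the filter through the other groups. For 9 primitive endoderm markers the sums were 12769 to 13216, 4527 to 4916 and 8617 to 10546. This set was split: against fertilized cells, androgenetic cells had 5 of the 9 raised, 3 reduced and 1 not passing. Of these, 4 were raised and 3 reduced by at least 2-fold. The part of these differences in the results that follow was not tested, and in bulk RNA fewer cells of a type and less RNA per cell cannot be told apart.

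In androgenetic cells most of the measured glycolysis and hypoxia genes were lower than in fertilized cells. Of the 30, 23 were lower and 6 higher at an adjusted p under 0.05 (limma), and Ddit4 did not pass. Such calls were common across the array. Among all 8221 genes 74.7% passed, 39.3% lower and 35.4% higher. The median log2 change was -1.05 over the 30 genes and -0.05 over all genes. The 23 lower genes included the pyruvate dehydrogenase kinase Pdk1, the prolyl hydroxylase Egln3 and the aldolase Aldoc, each at least 8-fold lower, while the 6 higher genes were the glucose transporters Slc2a1 and Slc2a3, the regulator Pfkfb4, the enolase Eno3, Hif1a and Bnip3l. Changes of at least 2-fold were found for 15 lower and 2 higher genes, against 15% and 13.2% of all genes. Hk1, one of the 15, was below detection in androgenetic cells. Restricting the set to the 26 genes detected on all arrays left 19 lower and 6 higher.

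In parthenogenetic cells the calls in these genes were again mostly lower than in fertilized cells. There, 18 of the 30 genes were lower, 1 was higher and 11 did not pass, against 20.3% lower, 20.3% higher and 40.6% in either direction among all genes. The median change was -0.48 on the log2 scale, and -0.01 over all genes. Aldoc, Eno2, Pdk1 and Egln3 were lower by at least 2-fold and none of the 30 was higher by that much, beside 2.24% and 3.27% of all genes. The count of higher genes rested on Pfkp and was 0 when either parthenogenetic array or fertilized replicate 1 was left out, as described with that gene. Both comparisons use the same fertilized arrays, so their values stand side by side below and are not independent.

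Set directly against each other, androgenetic cells were lower than parthenogenetic cells for 18 of the 30 genes, higher for 8 and not different by the test for 4. Among all genes, 37.1% were lower and 34.0% higher, 71.1% in all. The median change was -0.50, and -0.03 over all genes. At least 2-fold differences were found for 11 lower and 3 higher genes, against 14.6% and 12.7% of all genes. Without the X-linked Pgk1 and Pdk3, 16 of 28 genes were lower and 8 higher, with a median of -0.37. Over the 278 measured X-linked genes the median change in this comparison was -0.48. Scaling arrays to a common median moved the median of all genes from -0.03 to 0.15 and the share of calls that were lower from 52.2% to 40.4%, and it left 16 of the 30 genes lower and 9 higher.

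**Figure D1:**
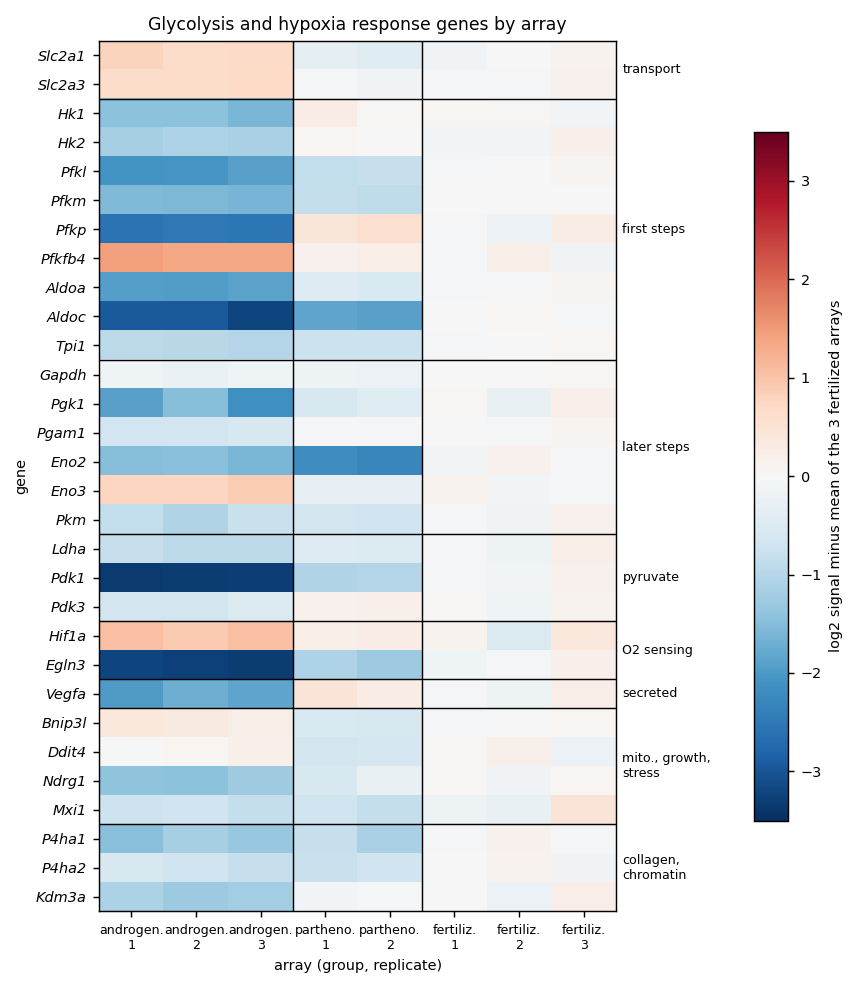
Log2 signal of each measured gene (rows, by role) on each of the 8 arrays (columns, by group and replicate), drawn as the difference from that gene's mean over the 3 fertilized arrays; blue is lower and red is higher. Pdk1, Egln3 and Aldoc are the darkest blue rows in androgenetic cells, and Slc2a1, Slc2a3, Pfkfb4, Eno3 and Hif1a are red there.

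**Figure D2:**
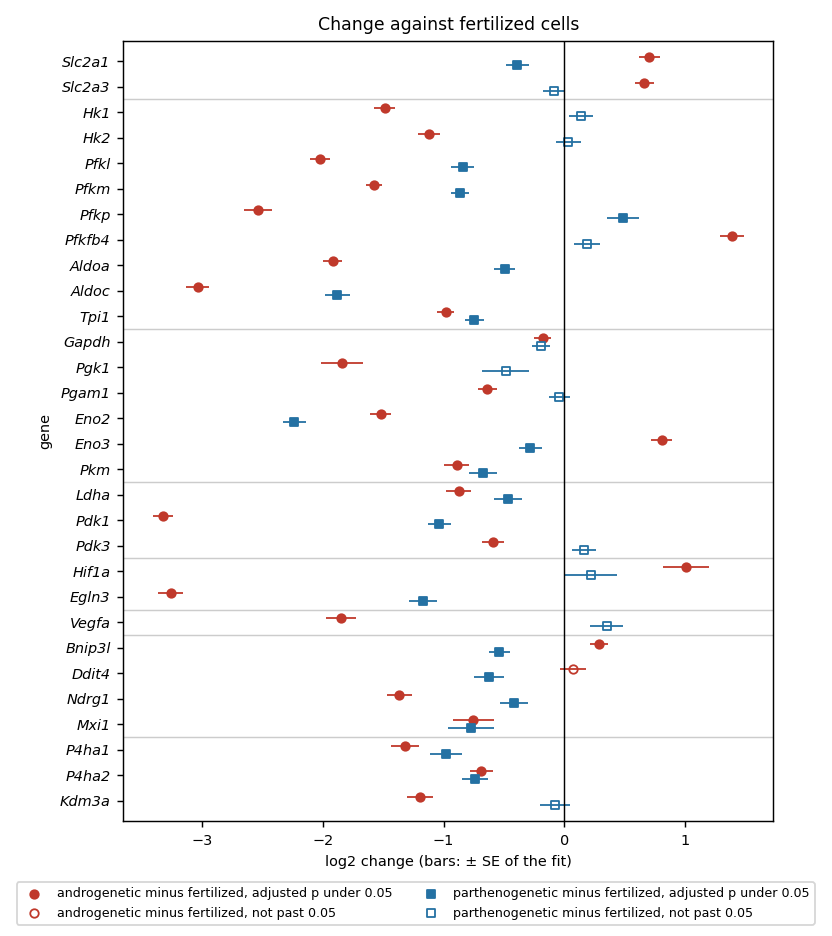
Fitted log2 change against fertilized cells for each gene (rows), in androgenetic cells (circles) and parthenogenetic cells (squares), with bars for ± 1 SE of the fit and open symbols where the adjusted p was not under 0.05. The circles run from -3.32 for Pdk1 to 1.39 for Pfkfb4, and the squares from -2.24 for Eno2 to 0.49 for Pfkp.

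The promoters of the genes with the 3 largest decreases and the 3 largest increases among the 30 genes in androgenetic cells are shown because HIF1A binds DNA at the short core ACGTG or GCGTG. Each sequence is the 250 bases before a RefSeq transcript start in mouse build GRCm38.p6, written 5′ to 3′ on the strand of the gene, with each core match on either strand in capitals. Where a gene has several starts, the one with most matches from 250 bases before to 50 after the start is shown. Further matches, at -2 in Pdk1 and at 12 and 28 after the start in Aldoc, fall partly or wholly outside the printed bases.
Pdk1: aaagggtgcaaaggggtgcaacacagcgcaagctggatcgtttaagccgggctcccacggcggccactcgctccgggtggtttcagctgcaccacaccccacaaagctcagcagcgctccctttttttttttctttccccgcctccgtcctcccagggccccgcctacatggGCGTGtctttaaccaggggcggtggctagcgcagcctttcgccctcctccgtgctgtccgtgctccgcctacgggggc
Egln3: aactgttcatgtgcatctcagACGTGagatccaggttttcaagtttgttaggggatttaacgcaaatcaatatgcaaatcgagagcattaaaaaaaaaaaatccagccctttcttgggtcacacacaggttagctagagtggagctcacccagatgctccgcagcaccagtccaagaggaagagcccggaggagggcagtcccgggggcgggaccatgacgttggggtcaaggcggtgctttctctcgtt
Aldoc: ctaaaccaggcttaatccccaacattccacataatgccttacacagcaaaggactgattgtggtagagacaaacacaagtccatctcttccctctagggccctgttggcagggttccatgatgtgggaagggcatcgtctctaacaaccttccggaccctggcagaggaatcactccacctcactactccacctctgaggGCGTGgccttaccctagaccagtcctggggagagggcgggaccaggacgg
Pfkfb4: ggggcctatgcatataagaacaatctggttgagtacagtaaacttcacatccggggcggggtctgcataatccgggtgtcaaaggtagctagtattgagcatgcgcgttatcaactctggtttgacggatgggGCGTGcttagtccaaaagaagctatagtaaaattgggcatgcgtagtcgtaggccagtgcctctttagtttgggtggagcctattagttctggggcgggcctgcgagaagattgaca
Hif1a: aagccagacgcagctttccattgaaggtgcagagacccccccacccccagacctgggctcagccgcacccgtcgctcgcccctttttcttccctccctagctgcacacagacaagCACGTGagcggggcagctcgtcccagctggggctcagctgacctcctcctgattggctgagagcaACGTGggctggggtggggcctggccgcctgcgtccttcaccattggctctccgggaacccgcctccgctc
Eno3: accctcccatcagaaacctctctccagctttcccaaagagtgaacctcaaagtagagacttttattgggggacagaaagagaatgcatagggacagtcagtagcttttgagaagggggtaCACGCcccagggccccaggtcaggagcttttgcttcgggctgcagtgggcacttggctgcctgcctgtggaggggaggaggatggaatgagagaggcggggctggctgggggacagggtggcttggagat
Pdk1 lies at chr2:71872974-71873223 on the plus strand, and its GCGTG begins 78 bases before the start. Egln3 lies at chr12:54203875-54204124 on the minus strand, with ACGTG 229 bases before the start. Aldoc lies at chr11:78322823-78323072 on the plus strand, with GCGTG 50 bases before it. Pfkfb4 lies at chr9:108991652-108991901 on the plus strand, with GCGTG 117 bases before it. Hif1a lies at chr12:73907617-73907866 on the plus strand. Its CACGTG holds the core once on each strand, 135 and 134 bases before the start, and a further ACGTG begins 70 bases before it. Eno3 lies at chr11:70656926-70657175 on the plus strand, and its CACGC, the core GCGTG read on the other strand, begins 130 bases before the start.

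A match of 5 letters is common. In windows from 250 bases before to 50 after the start, 43.8% of all 32851 promoters in the table held at least 1 match on either strand, as did 62.7% of the 8686 promoters of genes with a kept probe. Of the 42 promoters found for 27 of the 30 measured genes, 31 held a match (73.8%). Their median GC content was 61.7%, against 60.7% for genes with a kept probe and 52.7% for all promoters. Among the measured genes lower in androgenetic cells 26 of 37 promoters held a match (70.3%), and among the higher ones 4 of 4. No promoter was found for the higher genes Slc2a3 and Bnip3l, and a lower gene could have several. Counted by gene, 20 of 22 lower and 4 of 4 higher genes had a promoter with a match. The core was therefore found in promoters of genes that were lower and of genes that were higher, and a match is a description of the letters, not a bound site.

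Glucose enters the cell through facilitative transporters. Slc2a1 encodes GLUT1, the widely expressed transporter. Its log2 signal was 15.36, 15.23 and 15.26 on the androgenetic arrays, 14.23 and 14.14 on the parthenogenetic arrays, and 14.45, 14.58 and 14.70 on the fertilized arrays. The 3 groups did not overlap, with androgenetic cells highest and parthenogenetic cells lowest. The signal was 1.63-fold higher in androgenetic than in fertilized cells (log2 change 0.70 ± 0.0862 SE, adjusted p = 7.68e-05), and 1.31-fold lower in parthenogenetic cells (-0.39 ± 0.0964, adjusted p = 0.0124). The latter did not pass without parthenogenetic replicate 2 (adjusted p = 0.0882), and the lone remaining array was then assumed to vary like the other groups. Slc2a3 encodes GLUT3, a high-affinity transporter. It read 15.46, 15.48 and 15.52 in androgenetic, 14.76 and 14.71 in parthenogenetic and 14.76, 14.75 and 14.96 in fertilized cells. Androgenetic arrays stood above all others, by 0.66 ± 0.0805 against fertilized cells (adjusted p = 7.25e-05), while the parthenogenetic and fertilized arrays overlapped (-0.09 ± 0.09, adjusted p = 0.463).

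Hexokinases trap glucose in the cell as glucose 6-phosphate. Hk1, the form found in most tissues, read 6.51, 6.50 and 6.36 on the androgenetic arrays, none of which detected it, 8.19 and 7.97 on the parthenogenetic arrays and 8.00, 7.98 and 7.85 on the fertilized arrays. Since the androgenetic values have only an upper bound, Hk1 was at least 2.42-fold lower there than in fertilized cells (adjusted p = 7.79e-07) and at least 2.66-fold lower than in parthenogenetic cells. Bounds were computed from the lowest signal that each array still detected. Hk2, a form induced by HIF1A in many cells, read 12.90, 12.97 and 12.93 in androgenetic, 14.13 and 14.05 in parthenogenetic and 13.97, 13.95 and 14.24 in fertilized cells. It was 2.17-fold lower in androgenetic than in fertilized cells (-1.12 ± 0.0923, adjusted p = 5.83e-06). The parthenogenetic arrays lay within the fertilized range for Hk2 (0.03 ± 0.103, adjusted p = 0.824) and overlapped it for Hk1 (0.14 ± 0.1, adjusted p = 0.307).

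Phosphofructokinase commits sugar to glycolysis, and its 3 genes encode the liver, muscle and platelet subunits. Pfkl, the liver subunit, read 12.21, 12.23 and 12.42 in androgenetic, 13.44 and 13.49 in parthenogenetic and 14.24, 14.29 and 14.40 in fertilized cells. The groups formed 3 separate steps, 4.07-fold lower in androgenetic (-2.02 ± 0.0846, adjusted p = 8.76e-08) and 1.79-fold lower in parthenogenetic than in fertilized cells (-0.84 ± 0.0946, adjusted p = 0.000236). A dimmer Pfkl probe gave -0.77 and -0.72 for these changes, and -0.05 between androgenetic and parthenogenetic cells (adjusted p = 0.73) where the brighter probe gave -1.18, so the probes disagree on the last comparison. Pfkm, the muscle subunit, showed the same order, from 10.49 to 10.57, 11.23 to 11.27 and 12.10 to 12.12. It was lower by 1.58 and 0.86 on the log2 scale (-1.58 ± 0.0656 and -0.86 ± 0.0734), and its 2 other probes passed in the same direction in all 3 comparisons.

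Pfkp, the platelet subunit, read 9.19, 9.25 and 9.23 on the androgenetic arrays, 12.18 and 12.31 on the parthenogenetic arrays and 11.71, 11.55 and 12.02 on the fertilized arrays. It was far lower in androgenetic cells than in either other group, 5.81-fold against fertilized (-2.54 ± 0.117, adjusted p = 1.59e-07) and 8.13-fold against parthenogenetic cells (-3.02 ± 0.131, adjusted p = 1.43e-07). Both parthenogenetic arrays were above all fertilized arrays, by 0.49 ± 0.131 (adjusted p = 0.0183). This call was lost without parthenogenetic replicate 1 (adjusted p = 0.0541), parthenogenetic replicate 2 (0.116) or fertilized replicate 1 (0.0515), and a second Pfkp probe gave 0.11 (adjusted p = 0.642). Pfkfb4 encodes a bifunctional enzyme that makes and removes fructose 2,6-bisphosphate, the activator of phosphofructokinase. It read 9.27, 9.19 and 9.18 in androgenetic, 7.97 and 8.06 in parthenogenetic and 7.76, 8.03 and 7.69 in fertilized cells. It was thus 2.62-fold higher in androgenetic than in fertilized cells (1.39 ± 0.0975, adjusted p = 2.09e-06), while parthenogenetic and fertilized arrays overlapped (0.19 ± 0.109, adjusted p = 0.211).

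Aldolase splits fructose 1,6-bisphosphate into a pair of triose phosphates. Aldoa, the muscle and general form, read 12.91, 12.88 and 12.97 in androgenetic, 14.40 and 14.30 in parthenogenetic and 14.80, 14.77 and 14.95 in fertilized cells. Aldoc, the brain form, read 8.09, 8.08 and 7.81, then 9.18 and 9.12, then 11.05, 11.09 and 10.95 in the same order. For both genes the 3 groups were separate, androgenetic lowest and fertilized highest. Aldoa was 3.78-fold lower in androgenetic (-1.92 ± 0.0779, adjusted p = 7.62e-08) and 1.41-fold lower in parthenogenetic than in fertilized cells (-0.49 ± 0.087, adjusted p = 0.00243). For Aldoc the differences were 8.20-fold (-3.04 ± 0.0935, adjusted p = 1.67e-08) and 3.68-fold (-1.88 ± 0.105, adjusted p = 6.95e-06). Tpi1, which interconverts the trioses, ran from 13.83 to 13.90 in androgenetic, 14.09 to 14.10 in parthenogenetic and 14.77 to 14.92 in fertilized cells. It was lower by 0.98 and by 0.75 on the log2 scale (-0.98 ± 0.0709 and -0.75 ± 0.0793), and the gap of -0.23 between androgenetic and parthenogenetic cells lost its call when any androgenetic or parthenogenetic array was left out (adjusted p from 0.0509 to 0.103).

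**Figure D3:**
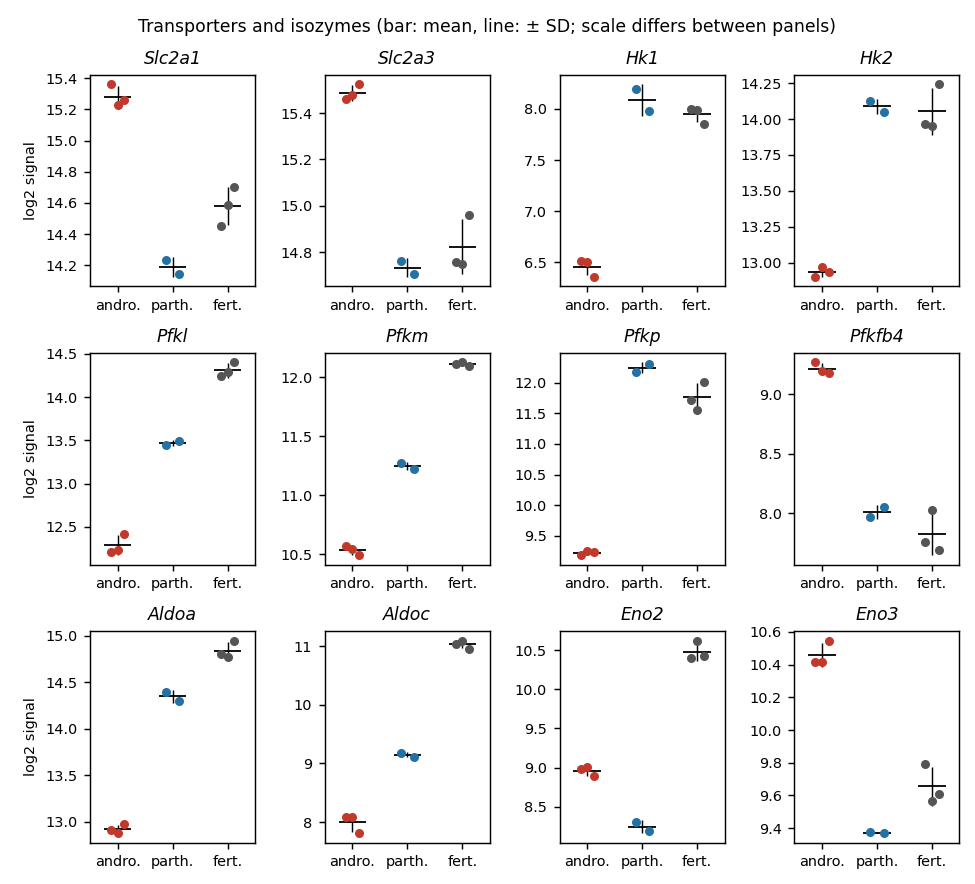
Log2 signal per array (points) of the transporters, hexokinases, phosphofructokinase subunits, Pfkfb4, aldolases and enolases in the 3 groups, with the mean (horizontal bar) and SD (vertical line); each panel has its own scale, which does not start at 0. Pfkl, Pfkm, Aldoa and Aldoc fall in 3 steps from fertilized to parthenogenetic to androgenetic cells, whereas Pfkp is high in parthenogenetic cells (12.18 and 12.31) and Eno2 is lowest there (8.30 and 8.19).

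The later steps yield ATP. Gapdh, which oxidises glyceraldehyde 3-phosphate and is often used as a reference gene, read 15.67, 15.60 and 15.68 in androgenetic, 15.65 and 15.63 in parthenogenetic and 15.82, 15.81 and 15.87 in fertilized cells. Fertilized arrays were above all others by a small margin. The change was -0.18 ± 0.0664 in androgenetic (adjusted p = 0.0347) and -0.19 ± 0.0743 in parthenogenetic cells (adjusted p = 0.0711). The androgenetic call was lost without any 1 array other than fertilized replicate 2 (adjusted p from 0.0537 to 0.126). A dimmer Gapdh probe gave -0.37 (adjusted p = 0.00492) and -0.30 (adjusted p = 0.0436). Only 25 of the 12300 kept probes were brighter than the Gapdh probe, and loss of range at the bright end was not tested. Pgam1, phosphoglycerate mutase, ran from 11.26 to 11.38 in androgenetic, 11.88 to 11.91 in parthenogenetic and 11.87 to 12.03 in fertilized cells. It was lower in androgenetic than in fertilized cells (-0.64 ± 0.0753, adjusted p = 6.09e-05), with the parthenogenetic arrays inside the fertilized range.

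Pgk1, phosphoglycerate kinase, lies on the X chromosome and was read by a dim probe. Its signal was 6.96, 7.37 and 6.70 in androgenetic cells, where 2 of 3 arrays detected it, 8.29 and 8.44 in parthenogenetic cells and 8.92, 8.60 and 9.03 in fertilized cells. It was lower in androgenetic than in fertilized cells (-1.84 ± 0.174, adjusted p = 1.41e-05), and both parthenogenetic arrays were below the fertilized arrays by an amount that did not pass (-0.49 ± 0.194, adjusted p = 0.0779). Over the 278 measured X-linked genes the median change was 0.62 in parthenogenetic and 0.05 in androgenetic against fertilized cells. Probes for Pgk1, Gapdh, Aldoa, Ldha, Tpi1 and Pgam1 can also read processed pseudogenes, which was not tested.

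Enolase makes phosphoenolpyruvate, and its neuronal and muscle forms moved in opposite directions in androgenetic against fertilized cells. Eno2, the neuronal form, read 8.98, 9.01 and 8.89 in androgenetic, 8.30 and 8.19 in parthenogenetic and 10.40, 10.62 and 10.42 in fertilized cells. The fertilized arrays were far above both other groups, and parthenogenetic cells were lowest. Eno2 was 2.87-fold lower in androgenetic (-1.52 ± 0.0861, adjusted p = 5.34e-07) and 4.71-fold lower in parthenogenetic than in fertilized cells (-2.24 ± 0.0963, adjusted p = 2.14e-06), and higher in androgenetic than in parthenogenetic cells (0.71 ± 0.0963, adjusted p = 0.000163). Eno3, the muscle form, read 10.42, 10.42 and 10.55 in androgenetic, 9.37 on both parthenogenetic arrays and 9.79, 9.57 and 9.61 in fertilized cells. It was 1.75-fold higher in androgenetic than in fertilized cells (0.80 ± 0.0841, adjusted p = 2.72e-05). The parthenogenetic change of -0.28 ± 0.094 passed at an adjusted p of 0.0416 and was lost when any 1 array other than fertilized replicates 2 and 3 was left out (adjusted p from 0.0564 to 0.151). Pkm, pyruvate kinase, read 14.49, 14.32 and 14.60, then 14.71 and 14.67, then 15.32, 15.24 and 15.52. It was lower than in fertilized cells in androgenetic (-0.89 ± 0.101, adjusted p = 4.67e-05) and parthenogenetic cells (-0.67 ± 0.113, adjusted p = 0.00187), and the difference between those groups did not pass (-0.22 ± 0.113, adjusted p = 0.113).

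Pyruvate is either reduced to lactate by lactate dehydrogenase or passed into mitochondria through pyruvate dehydrogenase, which the PDK kinases switch off. Ldha, the lactate dehydrogenase subunit of glycolytic tissues, read 14.08, 13.97 and 13.98 in androgenetic, 14.43 and 14.40 in parthenogenetic and 14.84, 14.72 and 15.11 in fertilized cells. It was lower in androgenetic (-0.87 ± 0.104, adjusted p = 6.53e-05) and parthenogenetic than in fertilized cells (-0.47 ± 0.117, adjusted p = 0.0127). Without parthenogenetic replicate 1 or 2 the latter did not pass (adjusted p = 0.06 and 0.0725), nor did the gap between androgenetic and parthenogenetic cells (-0.41 ± 0.117, adjusted p 0.0643 and 0.0502). Pdk1 read 8.99, 9.03 and 9.07 on the androgenetic arrays, 11.30 and 11.33 on the parthenogenetic arrays and 12.30, 12.25 and 12.51 on the fertilized arrays. Arrays of a group lay close together and the groups far apart. Pdk1 was 10.0-fold lower in androgenetic (-3.32 ± 0.0846, adjusted p = 6.32e-09) and 2.05-fold lower in parthenogenetic than in fertilized cells (-1.04 ± 0.0945, adjusted p = 8.49e-05). This was the largest decrease among the 30 genes in androgenetic cells, and its promoter is among those printed above. Pdk3, an X-linked kinase of the same family, ran from 9.92 to 10.05, 10.70 to 10.74 and 10.40 to 10.68, and was lower in androgenetic than in fertilized cells (-0.59 ± 0.0885, adjusted p = 0.000279) but not distinguished between parthenogenetic and fertilized cells (0.16 ± 0.0989, adjusted p = 0.223).

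In androgenetic against fertilized cells the transcription factor gene Hif1a and the hydroxylase gene Egln3 went in opposite directions. Egln2, another hydroxylase gene of the family, named after its values were seen, did not pass there (0.01 ± 0.154, adjusted p = 0.952). Hif1a read 9.78, 9.66 and 9.78 in androgenetic, 8.93 and 8.98 in parthenogenetic and 8.87, 8.22 and 9.11 in fertilized cells. Androgenetic arrays were above all others, and fertilized replicate 2 lay below the other fertilized arrays. Hif1a was 2.01-fold higher in androgenetic than in fertilized cells (1.01 ± 0.194, adjusted p = 0.00133), and the change was at least 0.75 with any array left out or under any other setting. The parthenogenetic change of 0.22 ± 0.217 did not pass (adjusted p = 0.45). Against parthenogenetic cells Hif1a was higher by 0.78 ± 0.217 (adjusted p = 0.0103), a call lost without parthenogenetic replicate 1 (adjusted p = 0.0543). HIF1A is controlled largely through the stability of its protein, which the arrays did not measure. Egln3 encodes PHD3, a prolyl hydroxylase that marks HIF1A for destruction and is itself a HIF target. It read 8.45, 8.41 and 8.35 in androgenetic, 10.59 and 10.40 in parthenogenetic and 11.51, 11.62 and 11.85 in fertilized cells. The 3 groups were separate, 9.57-fold lower in androgenetic (-3.26 ± 0.102, adjusted p = 1.82e-08) and 2.25-fold lower in parthenogenetic than in fertilized cells (-1.17 ± 0.114, adjusted p = 0.00012).

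Vegfa, the main growth factor of blood vessels and a HIF target, read 8.67, 8.94 and 8.80 in androgenetic, 11.10 and 10.91 in parthenogenetic and 10.59, 10.48 and 10.89 in fertilized cells. Androgenetic arrays were far below both other groups, 3.60-fold against fertilized (-1.85 ± 0.123, adjusted p = 1.49e-06) and 4.59-fold against parthenogenetic cells (-2.20 ± 0.138, adjusted p = 1.23e-06). Both parthenogenetic arrays were just above the fertilized arrays, with a change of 0.35 ± 0.138 that did not pass (adjusted p = 0.0735), while a dimmer Vegfa probe gave 0.73 (adjusted p = 0.00251).

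Genes of mitochondrial turnover, growth and stress were split in androgenetic cells and lower in parthenogenetic cells. Bnip3l, also called Nix, a receptor for the removal of mitochondria, read 12.61, 12.56 and 12.46 in androgenetic, 11.73 and 11.71 in parthenogenetic and 12.19, 12.25 and 12.32 in fertilized cells. It was higher in androgenetic (0.29 ± 0.0747, adjusted p = 0.00663) and lower in parthenogenetic than in fertilized cells (-0.54 ± 0.0835, adjusted p = 0.00125), and the direct difference was 0.83 ± 0.0835 (adjusted p = 2.56e-05). Ddit4 (REDD1), an inhibitor of the growth kinase mTORC1, read 12.75, 12.82 and 12.95, then 12.12 and 12.17, then 12.82, 12.94 and 12.55. Its androgenetic and fertilized arrays overlapped (0.07 ± 0.108, adjusted p = 0.552), and parthenogenetic cells were lower than fertilized cells (-0.62 ± 0.121, adjusted p = 0.00395). Ndrg1, a stress-responsive gene induced by low oxygen, ran from 8.00 to 8.20 in androgenetic, 8.87 to 9.18 in parthenogenetic and 9.33 to 9.51 in fertilized cells. It was lower by 1.37 in androgenetic cells (-1.37 ± 0.104, adjusted p = 3.53e-06). Its parthenogenetic change of -0.42 ± 0.117 (adjusted p = 0.0216) was lost without parthenogenetic replicate 1 (adjusted p = 0.18) or fertilized replicate 1 (0.0576), while a dimmer probe gave -0.59 (adjusted p = 0.00163). Mxi1, an antagonist of MYC, was dim, detected on 2 of 3 androgenetic arrays, and ran from 6.70 to 6.83, 6.68 to 6.83 and 7.26 to 7.97. It was lower than in fertilized cells in both other groups (-0.75 ± 0.171, adjusted p = 0.00341, and -0.77 ± 0.191, adjusted p = 0.0124), the latter not without parthenogenetic replicate 2 (adjusted p = 0.082).

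Both measured alpha subunits of collagen prolyl hydroxylase, an enzyme that stabilises the collagen helix, were lower than in fertilized cells in both other groups. P4ha1, the general catalytic subunit, ran from 6.46 to 6.75 in androgenetic cells, where 1 of 3 arrays detected it, 6.78 to 7.10 in parthenogenetic and 7.84 to 8.06 in fertilized cells. Its changes were -1.32 ± 0.117 (adjusted p = 9.54e-06) and -0.98 ± 0.131 (adjusted p = 0.000579). P4ha2, a second catalytic subunit, ran from 8.37 to 8.60, 8.38 to 8.48 and 9.04 to 9.29, with changes of -0.69 ± 0.0951 (adjusted p = 0.000167) and -0.74 ± 0.106 (adjusted p = 0.000832). P4hb, the beta subunit, which was named after its values were seen, was higher in androgenetic than in fertilized cells (0.40 ± 0.069, adjusted p = 0.000679) and did not pass in parthenogenetic cells (-0.15 ± 0.0771, adjusted p = 0.153). Kdm3a, a histone demethylase of H3K9 induced by low oxygen, read 10.47, 10.31 and 10.34 in androgenetic, 11.48 and 11.50 in parthenogenetic and 11.55, 11.37 and 11.79 in fertilized cells. It was 2.29-fold lower in androgenetic than in fertilized cells (-1.19 ± 0.111, adjusted p = 1.23e-05), and 2 other probes passed in the same direction. The parthenogenetic arrays lay inside the fertilized range (-0.08 ± 0.124, adjusted p = 0.658).

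**Figure D4:**
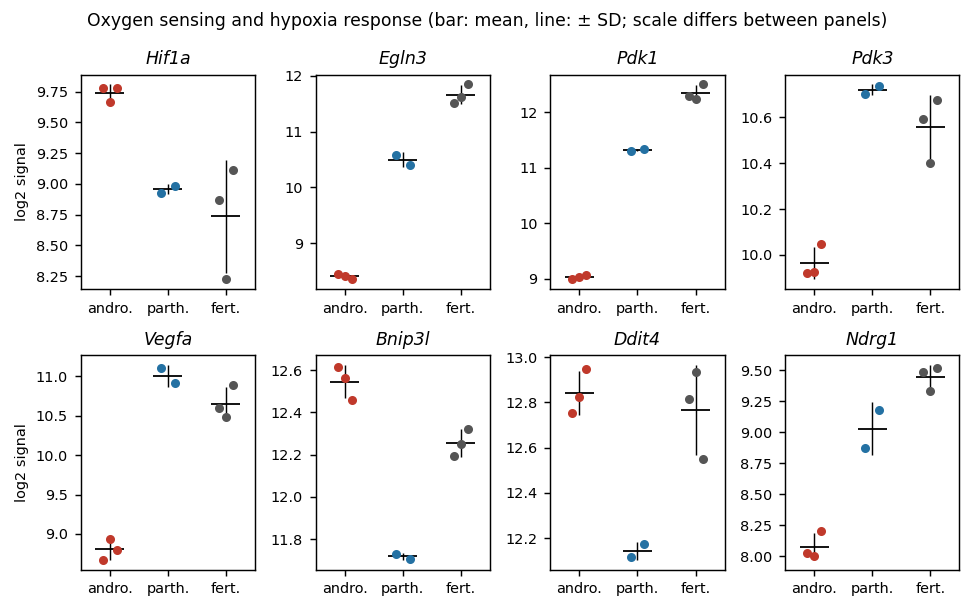
Log2 signal per array (points) of Hif1a, Egln3, Pdk1, Pdk3, Vegfa, Bnip3l, Ddit4 and Ndrg1 in the 3 groups, with the mean (horizontal bar) and SD (vertical line); each panel has its own scale, which does not start at 0. Hif1a is highest in androgenetic cells (9.66 to 9.78) while Egln3, Pdk1, Vegfa and Ndrg1 are lowest there, and fertilized replicate 2 stands low for Hif1a (8.22).

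By role, all 9 measured genes of the first steps passed in androgenetic against fertilized cells, 8 lower and Pfkfb4 higher, with a median change of -1.58. Of all genes, 39.3% were lower and 35.4% higher in this comparison. Of the 6 later-step genes, 5 were lower and Eno3 higher, with a median of -0.76. The 10 measured genes of oxygen sensing and the hypoxia response comprised 7 lower, 2 higher and 1 not passing, with a median of -0.97. In parthenogenetic cells the corresponding counts were 5 lower, 1 higher and 3 not passing for the first steps, 3 lower and 3 not passing for the later steps, and 7 lower and 3 not passing for the oxygen and hypoxia genes, against 20.3% lower, 20.3% higher and 40.6% in either direction among all genes.

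Further genes of the same pathways, taken from lists beside the 30, moved both ways. Of 12 other measured glycolysis and glucose entry genes, 8 were lower and 3 higher in androgenetic than in fertilized cells, and 3 were lower and 4 higher in parthenogenetic cells. The shares over all genes were 39.3% lower and 35.4% higher in androgenetic cells, and 20.3% each way in parthenogenetic cells. The median androgenetic change was -0.92 from fitted values. It was -0.59 with the 5 genes that had an undetected group set at their bound, or at 0 where no bound could be given. Pgm1, phosphoglucomutase, was 3.49-fold lower in androgenetic (-1.80 ± 0.123, adjusted p = 1.75e-06) and 2.93-fold lower in parthenogenetic cells (-1.55 ± 0.138, adjusted p = 7.49e-05). Ldhc, the testis form of lactate dehydrogenase, was not detected on androgenetic arrays and was at least 4.52-fold lower there than in fertilized cells (adjusted p = 5.49e-09). Tigar, a phosphatase that lowers fructose 2,6-bisphosphate, was detected only on the parthenogenetic arrays and passed the detection filter through them alone. It was at least 1.92-fold higher there than in fertilized cells, a direction that the filter fixed, and it is among the 4 higher genes. Fbp2, also among those 4 and among the 3 higher in androgenetic cells, was not detected on fertilized arrays. Pgam2 and Ldhd, among the 8 lower with Ldhc, were not detected on androgenetic arrays, and only 1 fertilized array detected Ldhd. Fbp2, Pgam2, Ldhd and Ldhc thus passed the filter only through groups where they were higher.

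Of 33 other measured oxygen sensing and hypoxia genes, 17 were lower and 10 higher in androgenetic, and 15 lower and 9 higher in parthenogenetic than in fertilized cells. These counts stand beside 39.3% lower and 35.4% higher, and 20.3% each way, among all genes. In the androgenetic comparison, 7 of the 33 had a group with no detection. Among the 17, androgenetic arrays did not detect Pdk4, Trib3, Rora, Ppp1r3c or Nos3. Among the 10, fertilized arrays did not detect Lox or Narf. These 7 passed the filter only through groups where they were higher. Narf passed through androgenetic and Rora through fertilized arrays alone, which fixed their direction against the undetected groups. The 15 include Rora, and also Narf, which no parthenogenetic or fertilized array detected. The 9 include Lox. The androgenetic median was -0.24, and the parthenogenetic median was -0.28 from fitted values. The parthenogenetic median was -0.15 with 3 genes that had an undetected group set at their bound, or at 0 where no bound could be given. Arnt, the partner of HIF1A (HIF1B), read 8.05, 8.12 and 8.18 in androgenetic, 8.61 and 8.63 in parthenogenetic and 9.35, 9.14 and 9.41 in fertilized cells. It was lower in both (-1.18 ± 0.0879, adjusted p = 2.99e-06, and -0.68 ± 0.0983, adjusted p = 0.000875), with no overlap between groups. Vhl, which recognises hydroxylated HIF1A, changed by -0.24 ± 0.154 in androgenetic (adjusted p = 0.192) and by -0.50 ± 0.172 in parthenogenetic cells (adjusted p = 0.048). The adenylate kinase gene Ak4 was 4.54-fold lower (-2.18 ± 0.113, adjusted p = 3.1e-07) and the transcription factor gene Ets1 5.06-fold higher (2.34 ± 0.0893, adjusted p = 5.37e-08) in androgenetic cells. Lox, a collagen-crosslinking oxidase and also a product of fibroblasts, was not detected on fertilized arrays and was at least 2.16-fold higher in androgenetic cells (adjusted p = 6.2e-08).

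In neighbouring pathways the median changes in androgenetic cells lay between -0.54 and -0.17. The shares over all genes are again 39.3% lower and 35.4% higher in androgenetic cells, and 20.3% each way in parthenogenetic cells. Of 19 measured enzymes of the tricarboxylic acid cycle, 10 were lower and 4 higher in androgenetic cells, with a median of -0.17. In parthenogenetic cells 4 were lower and 3 higher, shares near those of all genes, with a median of 0.01. Suclg2, a subunit of succinyl-CoA synthetase, was lower in both (-1.14 ± 0.0925, adjusted p = 5.28e-06, and -0.49 ± 0.103, adjusted p = 0.00574). Me1 was higher in both (0.67 ± 0.121, adjusted p = 0.000931, and 1.06 ± 0.135, adjusted p = 0.000453). Idh1 was higher in androgenetic cells (0.72 ± 0.129, adjusted p = 0.000903). Of 6 measured genes of the pyruvate dehydrogenase complex and its phosphatases, 3 were lower and 1 higher in androgenetic cells. The phosphatase gene Pdp1 was not detected on androgenetic arrays and was at least 1.75-fold lower there (adjusted p = 3.03e-05), and Pdhb, a subunit of the dehydrogenase, was lower (-0.54 ± 0.0847, adjusted p = 0.000379). The higher gene was Dlat (0.45 ± 0.0984, adjusted p = 0.00269). Of 7 measured pentose phosphate pathway genes, 6 were lower and none higher in androgenetic cells, with a median of -0.54. Prps1, which makes phosphoribosyl pyrophosphate, was the largest of these (-2.10 ± 0.118, adjusted p = 4.99e-07). In parthenogenetic cells the median of the 7 was -0.03.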

How the data were processed

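The members and the gene lists were chosen with earlier results of these data known. Per the labels, 0.55 ug of mirVana-extracted RNA went into biotin labelling by TotalPrep amplification. BeadStudio 3.1.3 was used per the submitters' processing notes. The authors deposited a linear intensity per probe and array, not normalized, for 25697 probes, with a detection p-value for each. The authors also deposited a log2 table of 12891 probes. It was reproduced to within 0.000742 by taking probes that 4 or more arrays detected (detection p below 0.05) and quantile normalizing their log2 intensities. Slides and scan dates are not given in the sources used here.

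From the intensities, neqc in limma 3.58.1 (R 4.3.3) estimated background from the detection p-values, added an offset of 16 and quantile normalized, and values were analysed on the log2 scale. The offset understates the changes of dim genes. Of the probes, 12300 passed detection and 11262 of these had a gene name. Names cover probes of the authors' log2 table, so a gene detected on few arrays can lack one. Quantile normalization sets all arrays to the same distribution. An array detected between 41.3% and 43.5% of its probes, and its median raw signal was between 127 and 167. The number of arrays limits the precision, and the median SD within groups was 0.105 over the members.

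A linear model over the 8 arrays estimated the 3 group means, leaving 5 residual degrees of freedom, with moderated two-sided tests (limma's eBayes), Benjamini-Hochberg adjustment over all kept probes and a threshold of 0.05. The fit was tested on simulated data with few changed probes and no renormalization, so that test does not cover changes as common as those here. Every measured member could be named; of each other list, the 2 largest increases and 2 largest decreases past the threshold, with Arnt and Vhl. Replicate numbers are passages and did not pair the groups: same-numbered arrays had residual correlations from -0.0896 to 0.0671. Alternatives changed the background correction, the source of values, scaling, offset, filter, probe choice, arrays in the fit and replicate block, and left out each array. Names, chromosomes and promoter sequences came from RefSeq, build GRCm38.p6.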

Additional observations from a re-analysis of the deposited data

How the results depend on the processing

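Values are given for the 30 genes unless another number is named. The androgenetic median against fertilized cells was -1.05 and became -0.91 without background correction, -0.88 with the authors' deposited log2 values (32 genes), and -0.94 with no detection filter (32 genes) or with genes detected on all 8 arrays (26 genes); with an array left out it ran from -1.09 to -0.983, with 22 to 23 genes lower and 6 higher. The parthenogenetic count of higher genes was 1, and became 2 without background correction or with the authors' values, 0 with the 2 groups fitted alone, and 0 to 2 with an array left out; 14 to 19 genes were then lower and the median ran from -0.533 to -0.388. Between androgenetic and parthenogenetic cells the median of -0.50 became -0.32 with the authors' values (32 genes), -0.31 with scaling to a common median and -0.37 with no filter (32 genes); with an array left out it ran from -0.554 to -0.487, with 15 to 18 genes lower and 7 to 8 higher. With the replicate block, 22 genes were lower and 6 higher in androgenetic and 16 lower and 1 higher in parthenogenetic than in fertilized cells; numbers did not pair the samples. Under it Pkm passed between androgenetic and parthenogenetic cells (-0.29, adjusted p = 0.0269). Single genes turned in sign only where neither value passed the test. In parthenogenetic against fertilized cells Hk2 became -0.0109 under common median scaling, and with an array left out it ran from -0.0179 to 0.127. Pgam1 became 0.000108 under the replicate block and ran from -0.0752 to 0.0036, Kdm3a from -0.177 to 0.0357 and Hif1a from -0.0327, without fertilized replicate 2, to 0.411. Ddit4 in androgenetic against fertilized cells ran from -0.0345 to 0.159. Between androgenetic and parthenogenetic cells Gapdh became -0.11 under common median scaling, -0.0301 as a mean over probes and -0.00634 under the replicate block, and ran from -0.00464 to 0.0353. Mxi1 became -0.0738 under the replicate block and ran from -0.0537 to 0.0908, and P4ha2 ran from -0.00842 to 0.109. The causes were not tested. Over combinations of gene and setting, 9 calls were lost and 0 gained for androgenetic cells against fertilized cells, all 9 for Gapdh, 22 lost and 12 gained for parthenogenetic cells against fertilized cells, and 21 lost and 2 gained between the uniparental groups. Dim probes (Hk1, Pgk1, Mxi1, P4ha1) have the least signal over background, and their changes are understated by the offset.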
